A study of Caenorhabditis elegans with 16 samples.

Results

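The membrane sector of the vacuolar H+-ATPase (V-ATPase) contains a large membrane-spanning protein, the a subunit, which Caenorhabditis elegans encodes in 4 genes, unc-32, vha-5, vha-6 and vha-7. These 4 genes were taken by name from the 46726 genes listed in the data, and all 4 were among the 30177 genes tested. The V-ATPase is a rotary proton pump. Its cytosolic V1 sector hydrolyses ATP, and its membrane V0 sector moves protons into lysosomes, other compartments or the space outside the cell. Most subunits are made in all tissues, whereas the a subunit, which provides the path for protons and helps to decide the membrane where the pump resides, comes in forms that differ between tissues. In the worm, unc-32 is best known from neurons and was named for the uncoordinated movement of its mutants, vha-5 acts in the epidermis and the excretory canal cell, vha-6 is placed at the apical membrane of the intestine, and vha-7 is found in the epidermis.

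RNA from whole first-stage (L1) larvae was sequenced in 16 samples, 2 for each of 8 groups. The groups were hlh-30(lf) worms, which carry the deletion allele tm1978 of the gene for HLH-30, a transcription factor of the MiT/TFE family, whose targets include lysosomal genes, and wild-type worms of the N2 strain. Worms of each genotype were fed, starved, or starved and then refed for 3 or 15 h with C. elegans maintenance medium (CeMM), a liquid food made only of defined nutrients. The question put to these samples was how starvation and refeeding with simple nutrients change RNA levels with and without HLH-30. No sample was starved for a further 3 or 15 h without CeMM, so refeeding and added time cannot be told apart. Fed worms differed from starved worms in culture as well as in food. By the study's methods, fed worms were also collected sooner after the eggs were prepared, so food and age cannot be told apart. The labels do not describe separate cultures for the samples of a group, which the study's methods call biological replicates, and p-values measure the spread between these samples only. Tissues were not separated: for every value that follows, fewer cells of a type and less RNA per cell cannot be told apart, and the tissue names above are background that whole-worm RNA cannot check.

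Total counts ran between 29205691 and 40955529 per sample, and ribosomal RNA took between 1.1% and 12.9% of them, with the highest share in replicate 2 of wild-type worms given CeMM for 15 h. The targeted gene, hlh-30, was below its wild-type level in hlh-30(lf) worms when fed (log2 fold change -0.71, adjusted p = 2.2e-05), after 3 h of CeMM (-0.57, adjusted p = 2.76e-05) and after 15 h of CeMM (-0.69, adjusted p = 3.98e-06, edgeR quasi-likelihood test). In starved worms it measured 249.8 and 239 normalized RPKM (a length-scaled level) in libraries with the label hlh-30(lf), against 221 and 207 in wild type (0.19, adjusted p = 0.141). Counts per gene cannot resolve which exons the reads came from, so the counts of hlh-30 do not check the genotype of the starved libraries labelled hlh-30(lf).

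The 4 genes lie on 3 chromosomes of the WBcel235 assembly. unc-32 (WBGene00006768) is at chromosome III, 8905617 to 8911748, on the plus strand, with 13 separate exon blocks over 3615 bases. vha-5 (WBGene00006914) is at chromosome IV, 8303968 to 8307369, on the plus strand, with 5 exon blocks over 2965 bases. vha-6 (WBGene00006915) is at chromosome II, 11435211 to 11438464, on the minus strand, with 6 exon blocks over 2710 bases. vha-7 (WBGene00006916) is also on chromosome IV, 12640447 to 12650652, on the plus strand, with 25 exon blocks over 3868 bases. The values are sums over exons, so the 6 annotated transcripts of unc-32 and the 3 each of vha-5 and vha-7 were not separated, and vha-6 has a single annotated transcript. Exons of unc-32 share 38 bases with the noncoding gene ZK637.20, which had between 4 and 29 counts, and exons of vha-5 share 44 bases with the protein-coding gene F35H10.10, which had between 3552 and 9425 counts, against 7377 and 7061 counts for vha-5 in starved wild type, the group with the lowest level of vha-5. Both neighbours are on the opposite strand, and the strand setting of the counting is not given in the sources used here.

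Levels are given as normalized RPKM, reads per kilobase of exon and per a fixed number of reads, rescaled between samples with the TMM method, so that genes of different length can be compared. Averaged over the 16 samples, vha-6 was the most abundant of the 4 genes at 200.2 normalized RPKM, followed by vha-5 at 141, unc-32 at 84.1 and vha-7 at 11.9. vha-7 was the least abundant in every sample (6.70 to 19.2), with 935 to 3007 counts per sample, against 6990 to 29321 counts for vha-6. The 4 genes differed in how far they moved. The highest group mean was 1.51 times the lowest for unc-32, 2.68 times for vha-5, 3.82 times for vha-6 and 2.77 times for vha-7.

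**Figure D1:**
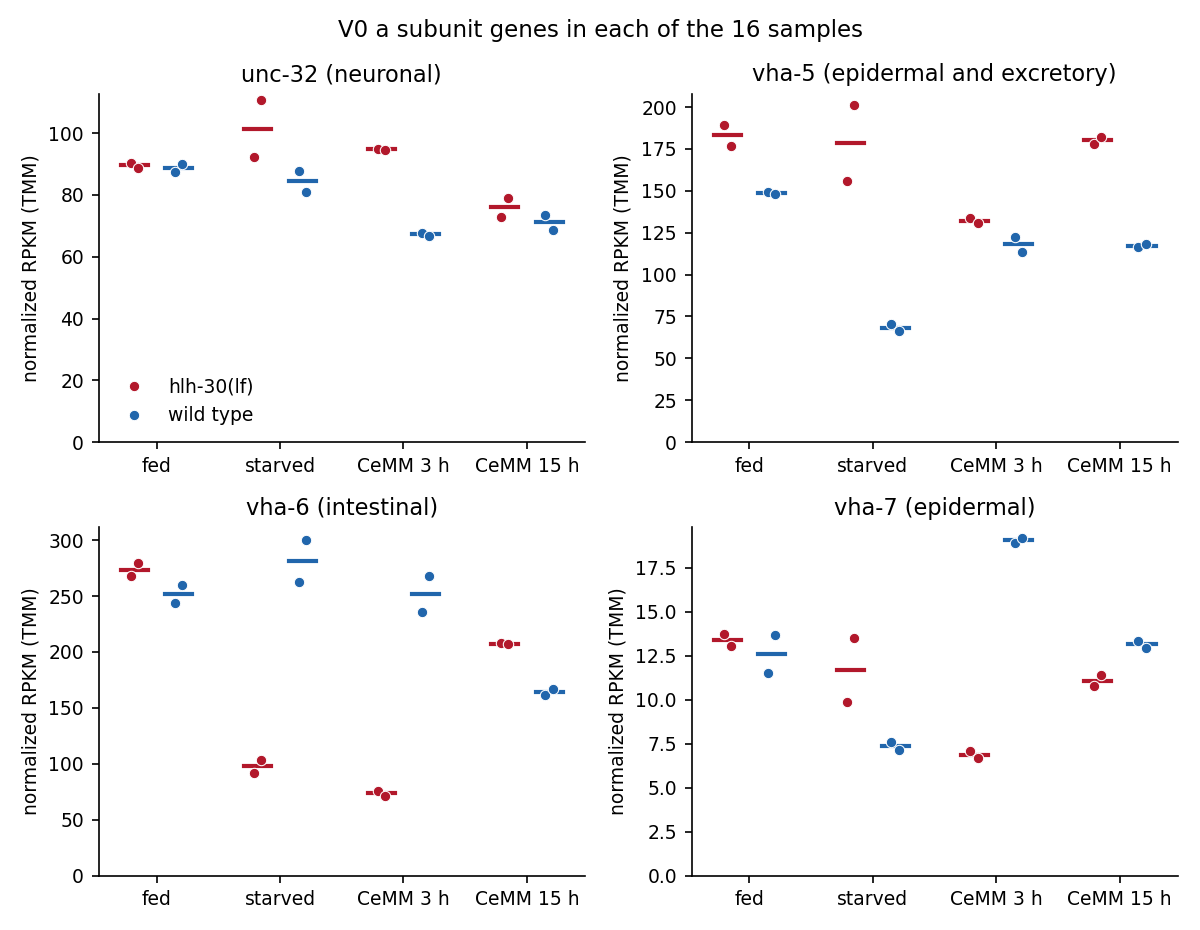
Normalized RPKM (vertical axis, from 0, with its own range in each panel) of the 4 a subunit genes in fed, starved and CeMM-refed worms. Points are samples, 2 per group, and lines are group means, with hlh-30(lf) in red and wild type in blue. vha-6 was low in the hlh-30(lf) samples of the starved and 3 h states (71.5 to 103.7), vha-5 was low in starved wild type (66.1 and 70.5), and vha-7 was high in wild type after 3 h (18.9 and 19.2).

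In fed worms, none of the 4 genes passed the test between the genotypes, where 2.26% of all genes tested were called higher in hlh-30(lf) worms and 2.16% lower. vha-5 came closest, at 190 and 177 normalized RPKM in hlh-30(lf) worms against 149 and 148 in wild type (log2 fold change 0.30 ± 0.09 SE, adjusted p = 0.0644). Both hlh-30(lf) samples lay above both wild-type samples. The same difference passed the threshold with an earlier form of the edgeR test (adjusted p = 0.0388), and also when ribosomal RNA and the 100 most abundant genes were left out (adjusted p = 0.0476). vha-6 differed by 0.12 (adjusted p = 0.765), vha-7 by 0.09 (adjusted p = 0.874) and unc-32 by 0.01 (adjusted p = 1).

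Starvation was followed by lower levels of different a subunit genes in the 2 genotypes. In hlh-30(lf) worms vha-6 fell and the other 3 genes did not pass the test, where 18.4% of all genes were called higher and 19.1% lower. In wild-type worms vha-5 and vha-7 fell and unc-32 and vha-6 did not pass the test, where 20.1% of all genes were called higher and 20.1% lower. The difference between the genotypes in the response to starvation was itself past the threshold for vha-5, vha-7 and vha-6 (positive for the first 2 and negative for vha-6), where 14.1% of all genes had a higher and 13.6% a lower response in hlh-30(lf) worms. No a subunit gene was called higher after starvation in either genotype.

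After 3 h of CeMM, 3 of the 4 genes were below their starved level in hlh-30(lf) worms (vha-5, vha-6 and vha-7) and none was above it, where 7.71% of all genes were called higher and 8.71% lower. In wild type, vha-5 and vha-7 rose and unc-32 fell, where 15.0% of all genes were called higher and 15.1% lower. The response differed between the genotypes for vha-5 and vha-7, both more negative in hlh-30(lf) worms, where 10.3% of all genes differed upwards and 11.5% downwards. After 15 h, in hlh-30(lf) worms vha-6 was above its starved level and unc-32 below it, where 15.6% of all genes were called higher and 15.1% lower. In wild type vha-5 and vha-7 were above and vha-6 and unc-32 below their starved levels, where 15.4% of all genes were called higher and 13.8% lower (4661 and 4156 genes, against 3150 and 5553 with scaling by library size alone). The 15 h response differed between the genotypes for vha-6 (higher in hlh-30(lf) worms) and for vha-5 and vha-7 (lower), where 10.4% of all genes differed upwards and 12% downwards (3135 and 3616 genes, against 4104 and 2537 with scaling by library size alone). The 3 h and 15 h responses are set against the same starved samples, which are also the samples set against fed worms.

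Between the genotypes in the starved state, all 4 genes passed the test, with unc-32, vha-5 and vha-7 higher and vha-6 lower in libraries with the label hlh-30(lf), where 18.8% of all genes were called higher and 19.3% lower. After 3 h of CeMM, unc-32 was higher and vha-6 and vha-7 were lower in hlh-30(lf) worms, where 17.7% of all genes were called higher and 18.6% lower. After 15 h, vha-5 and vha-6 were higher in hlh-30(lf) worms and none was lower, where 11.7% of all genes were called higher and 12.4% lower (3520 and 3727 genes, against 6275 and 2203 with scaling by library size alone). With calls this common among all genes, the number of a subunit genes called carries less than the direction and size for each gene, which follow.

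**Figure D2:**
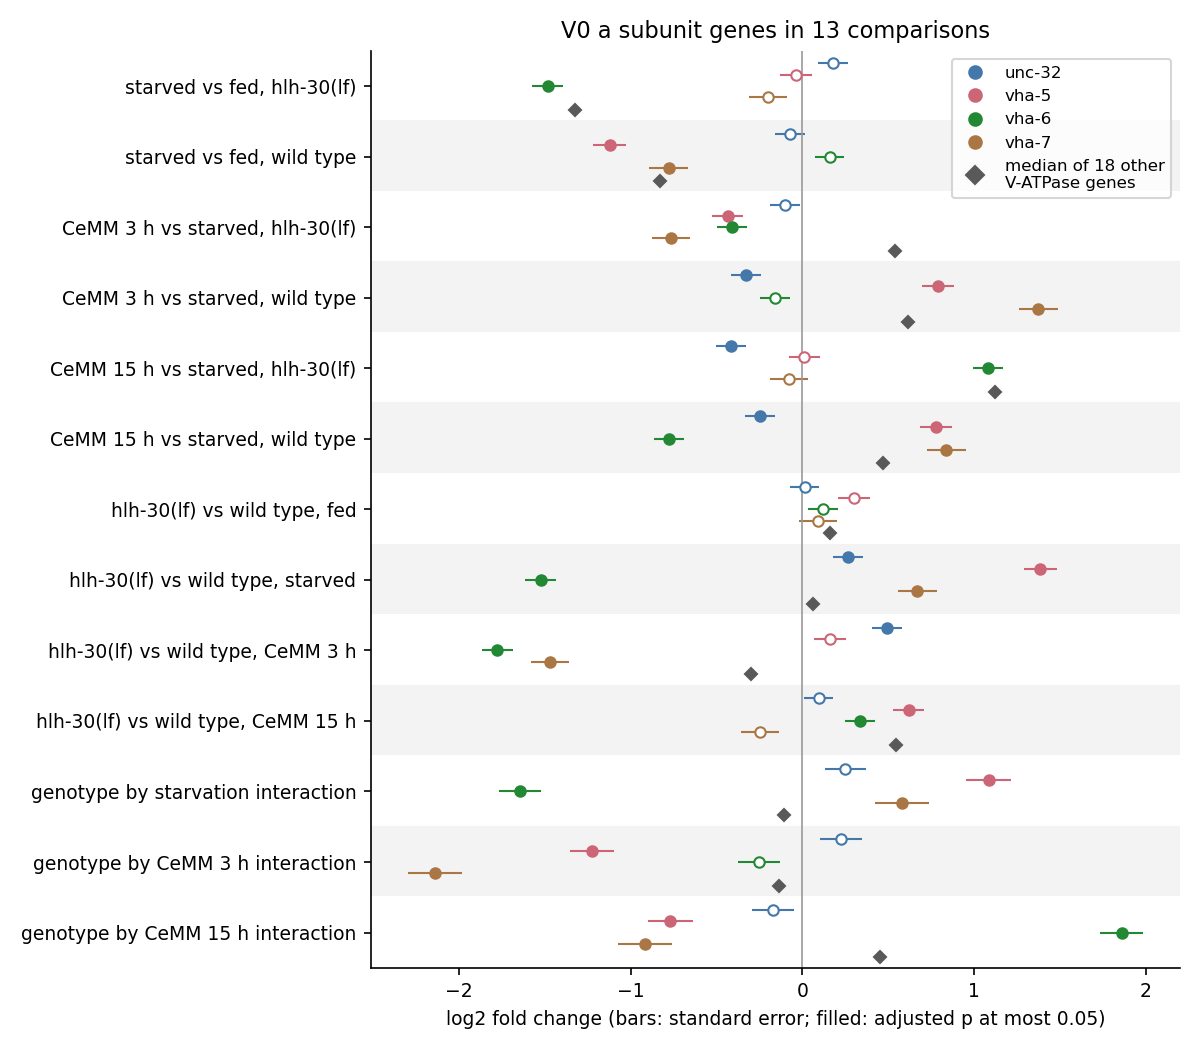
Log2 fold change (horizontal axis) of the 4 a subunit genes in each of 13 comparisons (rows), with the standard error as a bar. Filled points had an adjusted p of at most 0.05, and grey diamonds are the median of the 18 other V-ATPase genes. vha-6 and vha-5 lie on opposite sides of 0 in the genotype comparison of starved worms (-1.52 and 1.39).

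The intestinal gene vha-6 showed the largest range. In starved worms it measured 91.9 and 103.7 normalized RPKM in the libraries labelled hlh-30(lf), against 262 and 300.3 in wild type. The groups did not overlap, and the fold change was 0.348 (log2 -1.52 ± 0.09 SE, adjusted p = 3.6e-14). Set against fed worms of the same genotype, at 268 and 279 in hlh-30(lf) and 244 and 260.1 in wild type, vha-6 fell by 1.48 on the log2 scale in starved hlh-30(lf) worms (adjusted p = 6.07e-14), while the wild-type difference was 0.16 (adjusted p = 0.165). The difference between these responses was -1.64 ± 0.12 (adjusted p = 2.02e-11).

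After 3 h of CeMM vha-6 remained low in hlh-30(lf) worms, at 75.7 and 71.5 normalized RPKM, against 236 and 268 in wild type (log2 fold change -1.78, adjusted p = 1.75e-15). Compared with starved worms, this was a fall of 0.41 on the log2 scale in hlh-30(lf) worms (adjusted p = 0.000985) and -0.16 in wild type (adjusted p = 0.203), and the responses did not differ past the threshold (-0.25, adjusted p = 0.177). The fall in hlh-30(lf) worms lost its call when replicate 2 of hlh-30(lf) worms given CeMM for 3 h was left out (-0.35, adjusted p = 0.0824).

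By 15 h of CeMM the order had turned. vha-6 measured 208 and 207 normalized RPKM in hlh-30(lf) worms, against 161 and 167 in wild type (log2 fold change 0.34, adjusted p = 0.00399, and 0.61, adjusted p = 4.55e-06, with scaling by library size alone). It had risen by 1.08 over its starved level in hlh-30(lf) worms (adjusted p = 7.28e-11) and had fallen by 0.78 in wild type (adjusted p = 4.11e-08), a difference between the responses of 1.86 ± 0.12 (adjusted p = 4.1e-12). The hlh-30(lf) samples were still below the fed samples of that genotype. Over the 8 groups, vha-6 was highest in starved wild type (281), fed hlh-30(lf) (274), wild type after 3 h (252.0) and fed wild type (252), whose neighbours in that order overlapped, and the remaining 4 groups followed without overlap.

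Markers of the intestine also differed between the genotypes in the starved state. The 10 intestinal markers examined, among them elt-2, ges-1 and asp-1, summed to between 1260 and 1314 CPM in starved libraries with the label hlh-30(lf). In starved wild type they summed to 11622 to 13820 CPM. CPM here and below are counts scaled to the library total after rescaling with the TMM method. Of these markers, 7 were lower, 2 were higher and 1 was not called, and none was at 0. asp-1, an intestinal aspartyl protease that made up most of the sum in starved wild type, averaged 431 CPM in starved hlh-30(lf) libraries. In starved wild type it averaged 10142 CPM. The study examined asp-1 as a target gene of HLH-30, so it is not a neutral marker between these genotypes. ifb-2, the next largest, averaged 583 CPM in starved hlh-30(lf) libraries and 2256 CPM in starved wild type. By contrast, elt-2, a transcription factor that defines the intestine, averaged 36.7 CPM in starved hlh-30(lf) libraries and 16.7 CPM in starved wild type. In fed worms the sums were 8797 to 9419 CPM in hlh-30(lf) and 8886 to 10081 CPM in wild type, and no intestinal marker was called. In the genotype comparison after 3 h of CeMM, where vha-6 was lower in hlh-30(lf) worms, 1 of the markers was higher and 9 were lower. The sums at 3 h were 1385 to 1426 CPM in hlh-30(lf) worms and 7258 to 8195 CPM in wild type. In the genotype comparison after 15 h of CeMM, where vha-6 was higher in hlh-30(lf) worms, 3 of the markers were higher and 5 lower. In wild type after 15 h, 6 were higher and 3 lower than in starved worms, while vha-6 was lower. The part of intestinal RNA in the change of vha-6 was not tested.

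The epidermal and excretory gene vha-5 moved the other way in starved worms. It measured 156 and 201 normalized RPKM in the libraries labelled hlh-30(lf), against 70.5 and 66.1 in wild type. Both hlh-30(lf) samples were above both wild-type samples, with a fold change of 2.62 (log2 1.39 ± 0.09 SE, adjusted p = 8.32e-13). Compared with fed worms, the difference in starved hlh-30(lf) worms was -0.04 (adjusted p = 0.896), while in starved wild type vha-5 fell by 1.12 on the log2 scale (adjusted p = 5.34e-11). The difference between the responses was 1.09 ± 0.13 (adjusted p = 1.24e-07).

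The starved libraries labelled hlh-30(lf) differed from each other in vha-5, and the comparison with fed worms depended on which was kept. Without replicate 1 it was 0.13 (adjusted p = 0.242), and without replicate 2 it was -0.23 (adjusted p = 0.0215). The comparison with starved wild type kept its direction and its call under every alternative run.

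With 3 h of CeMM, vha-5 reached 134 and 131 normalized RPKM in hlh-30(lf) worms, against 123 and 114 in wild type, a difference that did not pass the test (log2 0.16, adjusted p = 0.198). The genotypes came to these levels from opposite sides, with a fall of 0.44 on the log2 scale against starved worms in hlh-30(lf) (adjusted p = 0.000933) and a rise of 0.79 in wild type (adjusted p = 7.47e-08), and the responses differed by -1.22 ± 0.13 (adjusted p = 2.88e-08). The value in hlh-30(lf) worms was -0.24 (adjusted p = 0.0332) without replicate 2 of the starved libraries. The difference between the genotypes at 3 h passed the threshold without replicate 1 of the starved libraries labelled hlh-30(lf) (0.20, adjusted p = 0.0169) and without their replicate 2 (0.16, adjusted p = 0.0446). Likewise, the difference in fed worms passed without the first of these libraries (adjusted p = 0.00408) and without the second (adjusted p = 0.00384). Neither library belongs to the groups compared here.

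After 15 h of CeMM, vha-5 measured 178 and 182 normalized RPKM in hlh-30(lf) worms, against 116 and 118 in wild type (log2 fold change 0.62, adjusted p = 5.7e-06). In hlh-30(lf) worms the difference from starved worms was 0.01 (adjusted p = 1), which became 0.21 (adjusted p = 0.0471) without replicate 2 and -0.16 (adjusted p = 0.165) without replicate 1 of the starved libraries. In wild type vha-5 rose by 0.78 over starved worms (adjusted p = 1.14e-07). The responses differed by -0.77 ± 0.13 (adjusted p = 3.97e-05). Over the 8 groups, fed, 15 h and starved hlh-30(lf) worms had the highest means (183, 180.2 and 179) with overlapping samples, and starved wild type the lowest (68.3), below all others.

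Markers of the epidermis and of the excretory canal cell also differed in the starved state. The 10 epidermal markers summed to between 1061 and 1132 CPM in starved libraries labelled hlh-30(lf), against 302 to 317 CPM in starved wild type, with 6 higher, 1 lower and none at 0. col-10 was the largest part of the sum in those hlh-30(lf) libraries, at 482 CPM on average. It averaged 64.9 CPM in starved wild type. The 7 excretory markers summed to between 505 and 507 CPM in starved libraries labelled hlh-30(lf), against 245 to 251 CPM in starved wild type, with 4 higher and none lower. After 3 h of CeMM, where vha-5 was not called and vha-7 was lower in hlh-30(lf) worms, 4 epidermal markers were higher and 1 lower. At that time 2 excretory markers were higher and 2 lower. After 15 h, where vha-5 was higher in hlh-30(lf) worms, 3 epidermal markers were higher and none lower. At 15 h, 3 excretory markers were higher and 2 lower. The part of these markers in the changes of vha-5 and vha-7 was not tested. nhr-31 is on the excretory list and encodes a nuclear hormone receptor known to act on V-ATPase genes in the excretory cell. It was the largest part of the excretory sums, at 256 CPM on average in starved hlh-30(lf) libraries and 93.6 CPM in starved wild type. It measured 106 and 109 normalized RPKM in starved libraries labelled hlh-30(lf), against 38.5 and 40.3 in starved wild type (log2 fold change 1.451, adjusted p = 6.25e-15). Compared with fed worms, nhr-31 differed by 0.03 in starved hlh-30(lf) libraries (adjusted p = 0.909) and fell by 1.29 in starved wild type (adjusted p = 6.08e-14).

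The epidermal gene vha-7, low throughout, had its largest change at 3 h. It measured 7.06 and 6.70 normalized RPKM in hlh-30(lf) worms after 3 h of CeMM, against 18.9 and 19.2 in wild type, with no overlap (fold change 0.361, log2 -1.47 ± 0.11 SE, adjusted p = 2.73e-11). Compared with starved worms, vha-7 fell by 0.76 on the log2 scale in hlh-30(lf) (adjusted p = 1.21e-05) and rose by 1.37 in wild type (adjusted p = 1.52e-10). The difference between these responses, -2.14 ± 0.16, was the largest in size of any a subunit gene in the 3 tests of this kind (adjusted p = 6.72e-11).

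In starved worms vha-7 measured 9.86 and 13.5 normalized RPKM in the libraries labelled hlh-30(lf), against 7.57 and 7.12 in wild type (log2 fold change 0.67, adjusted p = 1.75e-05), and the value was 0.42 (adjusted p = 0.00159) without replicate 2 of the libraries with that label. Set against fed worms, it differed by -0.20 in starved hlh-30(lf) libraries (adjusted p = 0.192) and fell by 0.78 in starved wild type (adjusted p = 1.88e-06). In hlh-30(lf) the value was 0.01 without replicate 1 of those libraries (adjusted p = 1) and -0.44 without replicate 2 (adjusted p = 0.00122). The difference between the responses was 0.58 ± 0.16 (adjusted p = 0.00548), and it lost its call without replicate 2 of the starved hlh-30(lf) libraries (0.34, adjusted p = 0.0629) or without replicate 2 of fed wild type (0.46, adjusted p = 0.0719).

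After 15 h of CeMM, vha-7 measured 10.8 and 11.4 normalized RPKM in hlh-30(lf) worms, against 13.3 and 12.96 in wild type (log2 -0.25, adjusted p = 0.121). The samples did not overlap, but the difference did not pass the test. It passed without replicate 1 (-0.24, adjusted p = 0.0391) or replicate 2 (-0.25, adjusted p = 0.0277) of the starved hlh-30(lf) libraries, and it was 0.03 when samples were scaled by library size alone. In hlh-30(lf) worms the difference from starved was -0.08 (adjusted p = 0.703), -0.28 without replicate 1 of the starved libraries (adjusted p = 0.039) and 0.17 without replicate 2 (adjusted p = 0.278). Wild type was above its starved level by 0.84 (adjusted p = 1.11e-06). The responses differed by -0.92 ± 0.16 (adjusted p = 5.56e-05).

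The neuronal gene unc-32 varied least, with group means between 67.3 and 101.4. Its largest difference between the genotypes was after 3 h of CeMM, when it measured 94.8 and 94.6 normalized RPKM in hlh-30(lf) worms, against 67.7 and 66.8 in wild type (log2 fold change 0.49 ± 0.09 SE, adjusted p = 2.8e-05). In hlh-30(lf) worms the difference from starved worms was -0.10 (adjusted p = 0.59), and 0.04 without replicate 2 of the starved libraries. Wild type after 3 h was below starved wild type, at 87.7 and 81.0 (log2 -0.33, adjusted p = 0.00366), and that call was lost without replicate 1 of starved wild type (-0.27, adjusted p = 0.0645). The difference between the genotypes in this response was 0.23 (adjusted p = 0.233), and it passed without replicate 2 of the starved hlh-30(lf) libraries (0.37, adjusted p = 0.011).

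Starvation was not followed by a called change of unc-32 in either genotype. Starved libraries labelled hlh-30(lf) had 92.2 and 111 normalized RPKM, against 90.3 and 88.8 in fed hlh-30(lf) worms (log2 0.18, adjusted p = 0.111). That value was 0.30 without replicate 1 of the starved libraries (adjusted p = 0.00537), 0.27 with scaling by library size alone (adjusted p = 0.0476) and 0.25 after edgeR's own filter on low counts (adjusted p = 0.0255). Starved wild type, at 87.7 and 81.0, differed by -0.07 (adjusted p = 0.571) from fed wild type, at 87.4 and 90.0. The responses differed by 0.25 (adjusted p = 0.145), and by 0.40 without replicate 1 of the starved hlh-30(lf) libraries (adjusted p = 0.00566).

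Between the genotypes in the starved state, unc-32 was higher in the libraries labelled hlh-30(lf) by 0.27 (adjusted p = 0.0144). The call was lost without replicate 2 of those libraries (0.13, adjusted p = 0.259) or without replicate 2 of starved wild type (0.21, adjusted p = 0.15), and the value was 0.42 (adjusted p = 0.00021) without replicate 1 of the libraries with that label. After 15 h of CeMM, unc-32 measured 72.9 and 79.1 normalized RPKM in hlh-30(lf) worms and 73.6 and 68.7 in wild type, which overlapped (log2 0.10, adjusted p = 0.57). With scaling by library size alone this difference was 0.37 (adjusted p = 0.00864).

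Compared with starved worms, unc-32 after 15 h of CeMM fell by 0.42 on the log2 scale in hlh-30(lf) worms (adjusted p = 0.000316) and by 0.25 in wild type (adjusted p = 0.031). The wild-type call was lost when any of 11 of the 16 samples was left out, with adjusted p between 0.0046 and 0.243 over the 16. The 11 were both fed samples of each genotype, both hlh-30(lf) samples at 3 h and at 15 h, replicate 1 of wild type at 3 h, replicate 2 of wild type at 15 h (-0.20) and replicate 1 of starved wild type (-0.19). Leaving out the rest of the 11 put the value at -0.23. With scaling by library size alone it was -0.43 (adjusted p = 0.0018). The responses of the genotypes differed by -0.17 (adjusted p = 0.427), which became -0.31 without replicate 1 of the starved hlh-30(lf) libraries (adjusted p = 0.0417). The 10 neuronal markers examined, among them rab-3 and snt-1, summed to between 3381 and 3586 CPM in starved libraries labelled hlh-30(lf). In starved wild type they summed to 5212 to 5325 CPM, and between the genotypes 2 were higher and 5 lower. Most of the sum came from egl-3 (1576 CPM in starved hlh-30(lf) libraries, 2714 in starved wild type) and egl-21 (854 against 1308). rab-3 averaged 128 CPM in those hlh-30(lf) libraries and 109 in wild type, and snt-1 105 against 98.9. The sum and unc-32 had opposite directions in that comparison. By mean CPM, rab-3, snt-1 and unc-64 went the same way as unc-32, though the samples of snt-1 overlapped. The other markers, egl-3, egl-21, unc-13, unc-10, unc-104, ric-4 and rgef-1, had lower means in those hlh-30(lf) libraries, and the samples of unc-104 overlapped.

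Because the a subunit genes are paralogs that serve the same place in the pump, their mixture was also described, as the share of each in the summed RPKM of the 4, a measure that does not depend on library size. In fed worms the mixture was alike in order in both genotypes. vha-6 made up 48.9% ± 1.7 of the sum in hlh-30(lf) worms and 50.2% ± 0.9 in wild type, and vha-5 32.7% ± 1.5 in hlh-30(lf) worms and 29.6% ± 1.0 in wild type (SD, n = 2 each). In the starved state vha-5 was the major a subunit transcript in the libraries labelled hlh-30(lf), at 45.7% ± 1.6, against 15.5% ± 1.4 in wild type, and vha-6 made up 25.2% ± 1.5 in those libraries, against 63.7% ± 3.4 in wild type.

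The mixture after 3 h of CeMM still differed by genotype. vha-6 made up 23.9% ± 0.6 in hlh-30(lf) worms and 55.2% ± 3.1 in wild type. unc-32 made up 30.8% ± 0.5 in hlh-30(lf) worms and 14.8% ± 0.7 in wild type. By 15 h the genotypes were closer in their shares, with vha-6 at 43.7% ± 0.8 in hlh-30(lf) worms and 44.9% ± 0.9 in wild type, and vha-5 at 38.0% ± 0.1 in hlh-30(lf) worms and 32.1% ± 0.2 in wild type.

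Averaged over the 4 states, the share of vha-5 was 14.1 percentage points higher in hlh-30(lf) worms (39.9% against 25.8% in wild type), and that of vha-6 differed by -18.04 points (35.4% against 53.5% in wild type). In an exact two-sided permutation test that exchanged genotype within each state over all 1296 arrangements, adjusted over the 4 shares, p was 0.00617 for vha-5 and 0.00926 for vha-6. It was 0.156 for unc-32 (4.46 points) and 0.188 for vha-7 (-0.50 points). The shares within a sample have a fixed total, so a lower share of vha-6 by itself raises the shares of the other genes. The tests of the shares are therefore not separate results. The average hides the states: for vha-6 the difference was -1.29 points fed, -38.5 points starved, -31.2 points at 3 h and -1.19 points at 15 h. For vha-5 the share at 3 h was 17.1 points higher in hlh-30(lf) worms, while its level was not called (edgeR log2 0.16, adjusted p = 0.198). No test of the shares within a single state was run, since 2 samples against 2 leave the exact permutation test too few arrangements to pass the threshold.

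**Figure D3:**
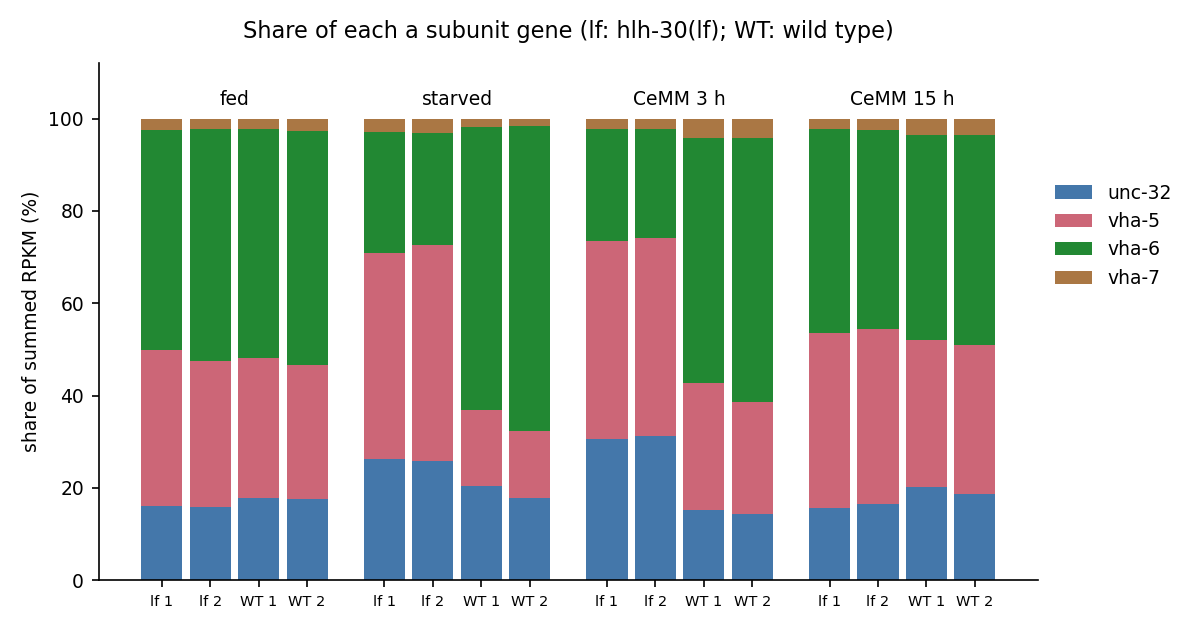
Share of each a subunit gene in their summed RPKM (vertical axis, percent), as stacked bars for the 16 samples, with hlh-30(lf) (lf) left of wild type (WT) in each state. The green vha-6 segment was small in hlh-30(lf) samples of the starved and 3 h states (25.2% and 23.9% on average), against 63.7% and 55.2% in wild type.

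The ratio of vha-6 to vha-5 in RPKM sets the 2 most abundant genes against each other. It was 0.589 and 0.515 in starved libraries labelled hlh-30(lf), against 3.72 and 4.54 in starved wild type, and 0.567 and 0.547 in hlh-30(lf) worms after 3 h of CeMM, against 1.92 and 2.36 in wild type. These 4 hlh-30(lf) samples were the ones with more vha-5 than vha-6. In fed worms the ratio was 1.41 and 1.58 in hlh-30(lf) and 1.63 and 1.76 in wild type, and after 15 h of CeMM it was 1.17 and 1.13 in hlh-30(lf) and 1.39 and 1.41 in wild type.

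The sum of the 4 genes did not follow the mixture across the states. In fed worms the sum was 558 to 561 normalized RPKM in hlh-30(lf) and 492 to 512 in wild type, without overlap. In starved worms it was 350 and 429 normalized RPKM in the libraries labelled hlh-30(lf), against 428 and 455 in wild type, so the groups overlapped. After 3 h of CeMM it was 303 to 311 in hlh-30(lf) worms and 445 to 468 in wild type, and after 15 h it was 470 to 480 in hlh-30(lf) worms and 364 to 367 in wild type.

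**Figure D4:**
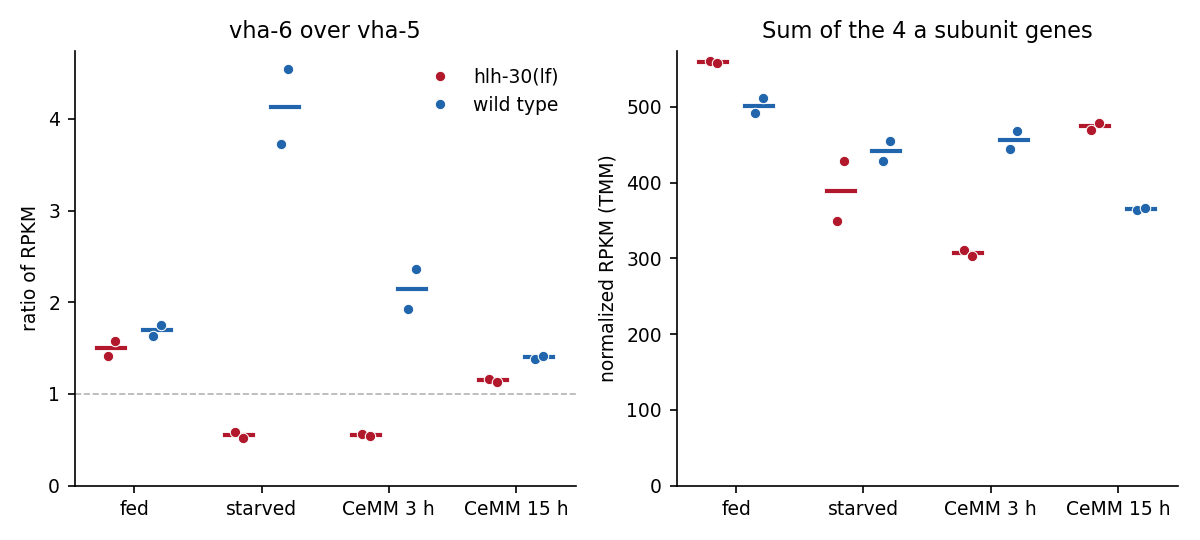
Ratio of vha-6 to vha-5 (left, vertical axis a ratio of RPKM, dashed line at 1) and the sum of the 4 a subunit genes (right, normalized RPKM) by state. Points are samples, lines are means of 2, hlh-30(lf) in red and wild type in blue. The ratio was under 1 in hlh-30(lf) samples of the starved and 3 h states (0.515 to 0.589) and highest in starved wild type (3.72 and 4.54).

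The a subunit genes were set beside 18 other V-ATPase genes, 10 of the V1 sector and 8 of the V0 ring and its accessory proteins. In starved against fed worms, 16 of the 18 were lower and 1 higher in hlh-30(lf), the median being -1.32 on the log2 scale, and 16 were lower and 1 higher in wild type, with a median of -0.83. The median of all genes tested was 0.00. Among the 8595 genes that averaged 10 CPM or more, the median was -0.06 in hlh-30(lf) and -0.17 in wild type. With edgeR's own filter on low counts, 2 of the 18 were higher in wild type. The gene called higher in hlh-30(lf) worms was vha-18 (0.91, adjusted p = 2.53e-05), and the gene called higher in wild type was spe-5 (0.88, adjusted p = 0.0038). Both were named after their values were seen, and both were low in every group. Group means lay between 0.98 and 5.12 normalized RPKM for vha-18 and between 0.58 and 1.57 for spe-5, against 70 or more for the rest of the list. Of the genes that fell, vha-12 encodes a B subunit of V1. It fell by 1.97 in starved hlh-30(lf) worms (adjusted p = 7.09e-17) and by 2.25 in starved wild type (adjusted p = 5.68e-18). vha-16, one of the other V0 genes, fell by 0.74 in hlh-30(lf) (adjusted p = 4.36e-09) and by 0.60 in wild type (adjusted p = 1.58e-07).

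The sum of the 4 a subunit genes over vha-12 was 2.18 ± 0.26 in starved libraries labelled hlh-30(lf) and 3.28 ± 0.09 in starved wild type (SD, n = 2 each). In fed worms the same ratio was 0.8003 ± 0.015 in hlh-30(lf) and 0.784 ± 0.019 in wild type. Over vha-16 it was 1.33 ± 0.26 in starved libraries labelled hlh-30(lf) and 1.54 ± 0.06 in starved wild type, against 1.14 ± 0.02 in fed hlh-30(lf) and 1.15 ± 0.003 in fed wild type. How far the a subunit genes stood above the rest in starved worms differed with the gene used as the denominator.

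**Figure D5:**
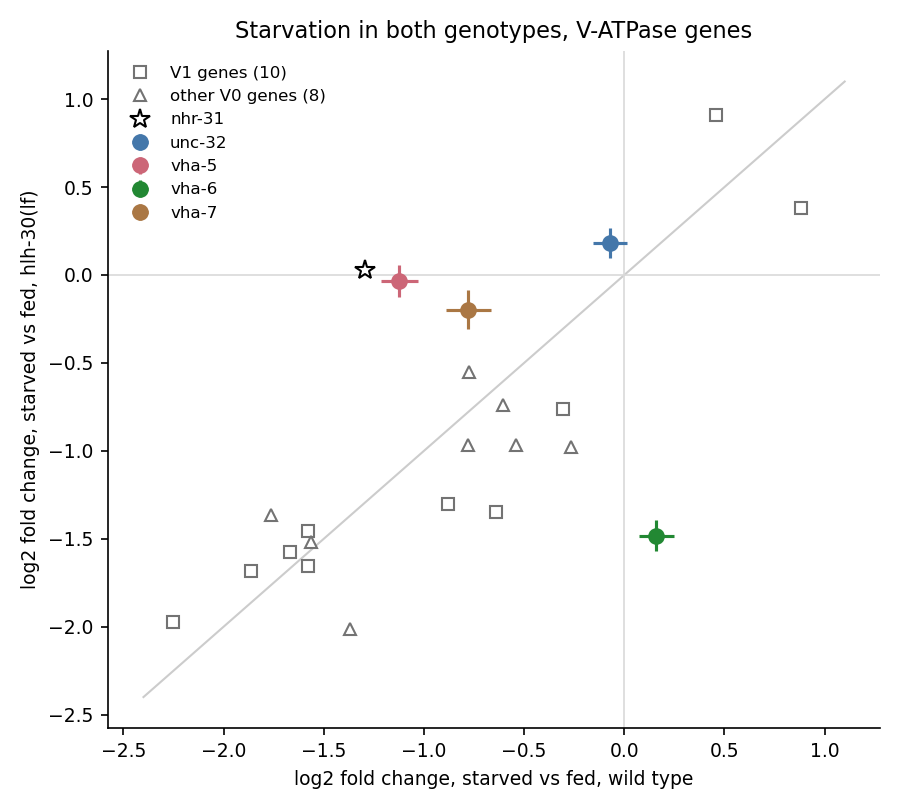
Log2 fold change of starved against fed worms in hlh-30(lf) (vertical axis) and in wild type (horizontal axis) for the 4 a subunit genes (filled circles with standard errors), 10 V1 genes (squares), 8 other V0 genes (triangles) and nhr-31 (star), with the line of equal change in grey. vha-6 lies at -1.48 in hlh-30(lf) and 0.16 in wild type, and vha-5 at -0.04 in hlh-30(lf) and -1.12 in wild type.

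On refeeding, the other V-ATPase genes mostly rose in both genotypes. After 3 h of CeMM, 17 of 18 were higher than in starved worms in hlh-30(lf) (median 0.54) and 14 were higher and 1 lower in wild type (median 0.61), whereas no a subunit gene was higher in hlh-30(lf) worms at that time. After 15 h, 16 were higher in hlh-30(lf) worms (median 1.13) and 11 in wild type (median 0.47), with none lower in either (in wild type 2 were lower with scaling by library size alone and 1 with edgeR's own filter), and vha-6 in hlh-30(lf) worms (1.08) and vha-5 and vha-7 in wild type (0.78 and 0.84) were the a subunit genes that were higher. The gene counted as lower in wild type at 3 h was vha-18. It lost its call without replicate 2 of wild type at 3 h or without replicate 1 of starved wild type. The call was also lost with scaling by library size alone.

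For genotype, 8 of the 18 passed upwards and 6 downwards in starved hlh-30(lf)-labelled libraries (median 0.06), while vha-6 was at -1.52 and vha-5 at 1.39. Without either replicate of starved wild type, 5 rather than 8 passed upwards. After 3 h of CeMM hlh-30(lf) worms had 2 of them higher (vha-18 and spe-5) and 10 lower (median -0.30). After 15 h 17 were higher and none lower (median 0.55). In fed worms 1 was higher and none lower (median 0.16), and none was higher when any of the 4 fed samples was left out. The gene higher in fed worms was vha-18. The genotype comparisons share samples with the comparisons over time.

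The genes with the most similar pattern were found by Pearson's r over the 8 group means, on log2(CPM + 1), among the 8595 genes that averaged 10 CPM or more. This is a description of 8 points that share libraries. For vha-6 they were ncx-7 (r = 0.985), dat-1 (0.973) and gtl-1 (0.968). For vha-5 they were R03H10.2 (0.975), pxn-1 (0.973) and Y72A10A.1 (0.970), for vha-7 alh-10 (0.958), atgp-2 (0.956) and WBGene00008116 (0.956), and for unc-32 C51E3.10 (0.979), tsp-11 (0.975) and M60.7 (0.974). Between the a subunit genes themselves r lay between -0.53 (unc-32 and vha-7) and 0.42 (vha-6 and vha-7), so no member was among the genes most like another.

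Markers of adult worms and of the germline summed to 16.5 and 19.3 CPM in starved libraries labelled hlh-30(lf) and to 27.2 and 88.6 CPM in starved wild type. After 3 h of CeMM they summed to 16.9 and 18.3 CPM in hlh-30(lf) worms and to 20.6 and 81.6 CPM in wild type. In starved hlh-30(lf) libraries the germline genes glp-1 and gld-1 made up most of the sum (11.4 and 6.02 CPM on average). The vitellogenin gene vit-2 was at 0.44 CPM in 1 starved wild-type sample and 41.45 CPM in the other. In wild type at 3 h it was at 0.48 and 33.6 CPM. The part of these markers in the results for the a subunit genes was not tested.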

How the data were processed

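RNA from whole L1 worms was sequenced as single-end 50-nt reads in 16 samples. Per the labels' processing notes and the study's methods, the authors aligned reads with STAR 2.0.4b to WBcel235 (Ensembl release 76) and counted them per gene with featureCounts (1.45 in the processing notes); the strand setting is not given in the sources used here. The deposited tables hold, per gene and sample, whole-number counts, CPM (counts scaled to a fixed library total) and RPKM (CPM per kilobase of exon), both computed by the authors from the counts. No samples were pooled.

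The main test was the edgeR 4.0.16 quasi-likelihood test (legacy=FALSE, robust) on the deposited counts, with TMM scaling, 1 coefficient per group, no block and all 30177 genes with a count in any sample. Benjamini-Hochberg adjusted p at most 0.05 was called. Normalized RPKM, and the CPM of the markers and of the most similar genes, were computed here from the counts and the TMM factors. Shares were tested with an exact permutation test. The scripts were tested on simulated data. Alternatives were DESeq2 1.42.0, limma-voom (limma 3.58.1), edgeR's legacy method, RLE size factors, library size only, filterByExpr, leaving out ribosomal RNA and the 100 most abundant genes, the replicate block, shares of CPM, and each sample left out. A floor of 3 counts corresponds to between 0.0733 and 0.103 CPM.

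Named were the 4 a subunit genes, hlh-30, V-ATPase genes on which a comparison turns, and the 3 genes most like each member. The members and lists were chosen with earlier results of these data known. Sequences were not used here. Body wall muscle markers (4 genes) summed to between 10391 and 15641 CPM in starved libraries labelled hlh-30(lf) and to between 24990 and 25253 CPM in starved wild type.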

Additional observations from a re-analysis of the deposited data

Results flagged for a closer look

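Responses that differed with genotype by a test of the difference itself (edgeR quasi-likelihood interaction, log2, hlh-30(lf) minus wild type, adjusted p in the report) are collected here as values. For starvation the difference was 1.09 for vha-5, -1.64 for vha-6 and 0.58 for vha-7, and for the last of these the call was lost when either of 2 samples was left out. For 3 h of CeMM it was -1.22 for vha-5 and -2.14 for vha-7. For 15 h of CeMM it was -0.77 for vha-5, 1.86 for vha-6 and -0.92 for vha-7. The refeeding responses and the starvation response share the starved samples, so their signs are not independent of each other.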

How the results depend on the processing

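Values are log2 fold changes unless named otherwise. Among the values of the 4 genes in the 13 comparisons, 405 of those under alternatives other than leaving out a sample kept both direction and call, 10 changed sign and 5 gained a call, and none lost one. All sign changes were of values that were not called. With 1 sample left out, 794 kept both, 7 changed sign, 14 gained and 17 lost a call. The 72 values of the shares (8 under other settings and 64 with 1 sample left out) kept both.

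With scaling by library size only, unc-32 in starved against fed hlh-30(lf) worms was 0.27 and called, vha-5 in the same comparison 0.055, and between the genotypes at 15 h unc-32 was 0.37 and called and vha-7 0.027. The unc-32 difference between the 15 h responses became 0.035. This scaling moved the median of all genes by 0.15 in the genotype comparison at 15 h, by -0.12 in wild type at 15 h against starved and by 0.16 in the difference of the 15 h responses, where the values above are to be read against that shift. With filterByExpr, unc-32 in starved against fed hlh-30(lf) worms was 0.25 and called, vha-5 there 0.035, vha-5 at 15 h against starved hlh-30(lf) -0.0016, and unc-32 between fed genotypes -0.0024. With DESeq2 and with RLE size factors, the vha-5 value at 15 h and the unc-32 value in fed worms were -0.012 and -0.0018. Between fed genotypes vha-5 was called at 0.30 with edgeR's legacy method and at 0.31 without ribosomal RNA and the 100 most abundant genes. The legacy method called 2031 genes there, against 1335. The numbers of other V-ATPase genes called, in each direction and comparison, stayed within 1.5 times in 203 values under these settings and 396 with 1 sample left out, and moved further in 7 and 20, those of counts that the report prints being given there. The cause was not tested.

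With each sample left out in turn, starved against fed hlh-30(lf) worms ranged from 0.042 to 0.30 for unc-32, from -0.23 to 0.13 for vha-5 and from -0.44 to 0.0053 for vha-7. At 3 h against starved hlh-30(lf) the range was -0.22 to 0.039 for unc-32 and -0.49 to -0.32 for vha-6, and in wild type -0.38 to -0.27 for unc-32. At 15 h against starved hlh-30(lf) it was -0.16 to 0.21 for vha-5 and -0.28 to 0.17 for vha-7, and in wild type -0.30 to -0.19 for unc-32. Between fed genotypes it was -0.0019 to 0.032 for unc-32, 0.26 to 0.34 for vha-5 and -0.021 to 0.21 for vha-7. Between starved genotypes it was 0.13 to 0.42 for unc-32, at 3 h 0.11 to 0.23 for vha-5 and at 15 h -0.29 to -0.19 for vha-7. The difference of the starvation responses was 0.11 to 0.40 for unc-32 and 0.34 to 0.81 for vha-7, that of the 3 h responses 0.11 to 0.37 for unc-32, and that of the 15 h responses -0.31 to -0.032 for unc-32. The genes called numbered 3295 to 5297 at 3 h against starved hlh-30(lf), lowest without replicate 2 of hlh-30(lf) at 3 h, and 790 to 1525 between fed genotypes, where leaving out replicate 1 of fed hlh-30(lf) gave 790, its replicate 2 gave 824 and replicate 2 of fed wild type gave 796. A group left with 1 sample was assumed to vary like the others.

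The study's methods state that replicates were run at different times with their controls, but the labels do not tie the numbers to a time, and the block was kept as an alternative. Over 28 pairs of groups the correlation of same-numbered deviations lay between -0.147 and 0.278, 3 of them over 0.1 and 4 under -0.1. With the replicate block no call of the 4 genes changed. For example, unc-32 at 15 h against starved wild type was -0.25 (adjusted p = 0.0456), and the genes called between the fed genotypes numbered 1313, against 1335. Crossing the numbers in wild type at 3 h, an alternative chosen after seeing the data, gave 8969 genes called against starved wild type, and 9070 uncrossed.

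With 2 samples per group, differences under about 0.3 on the log2 scale often depended on 1 sample. vha-7, with the fewest counts, had the widest standard errors.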
